A study of Mus musculus with 99 samples.

Results

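The genes described here encode 42 lysosomal enzymes and membrane proteins, chosen by symbol for their textbook role, with earlier results of these data known. They are 42 of the 35870 genes in the deposited count table, and all 42 passed the filter on low counts in each tissue. By role they comprise 10 cysteine proteases, 3 other proteases, 11 hydrolases of glycans and glycosaminoglycans, 9 proteins of lipid and sphingolipid breakdown or transport, and 9 membrane and other proteins. Polyadenylated RNA was sequenced from whole spinal cord, gastrocnemius and quadriceps, the last being large muscles of the lower and upper leg. All mice were wild-type C57BL/6 males, perfused with buffered saline before the tissues were frozen, and none carried a transgene or a deletion per the labels. The groups were sedentary mice of 10 months, sedentary mice of 18 months and exercised mice of 18 months; the labels do not give the kind or length of the exercise, and there was no exercised group at 10 months. Cord and gastrocnemius each had 10, 10 and 13 libraries in that order, and quadriceps had 10, 9 and 12, so that 97 of 99 labelled samples were analysed. The labels do not say that each library came from its own animal, so p-values measure the spread between these libraries.

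Lysosomes are acidic, membrane-bound compartments in which hydrolases break down proteins, glycans and lipids delivered by endocytosis, phagocytosis and autophagy. Their enzymes are made as precursors, sorted from the Golgi by mannose 6-phosphate receptors, and act inside a limiting membrane coated by heavily glycosylated proteins such as Lamp1 and Lamp2. Many of the genes are targets of the transcription factor TFEB, which binds variants of the sequence TCACGTGA, and inherited loss of single enzymes causes storage disease of the nervous system or of muscle. In the spinal cord the resident phagocytes, microglia, hold large amounts of several of these proteins, Cd68 and Ctss among them, while neurons, glia and myofibres all have lysosomes. In bulk tissue, fewer cells of a type and less RNA per cell cannot be told apart.

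The upstream sequences below are a selection, 8 matches chosen to show members whose values are described here and all 4 members with TCACGTGA. They come from the 300-base window around the annotated start (250 bases before to 50 after it, RefSeq, GRCm38.p6), with TFEB-type letters in 7 and myeloid-type letters in 1. Of 42 members 37 had a window in the RefSeq table. The core CACGTG was found in 13 of them (35.1%), beside 8.09% of the windows of 27025 genes, and the longer TCACGTGA, which contains that core, in 4 (10.8%, beside 1.12%). GAGGAAGT, letters of the kind bound by the myeloid factor PU.1, was in 3 windows (Ctsc, Ctss and Gusb, 8.11%, beside 3.69%). Of these only the Ctsc match lay wholly before the start. Both strands were searched. Each sequence reads 5′ to 3′ on the strand of its gene, and capitals mark the matched letters, with GAGGAAGT appearing as its reverse complement in Ctsc.
Ctsd, chr7:142387899-142387946, minus strand: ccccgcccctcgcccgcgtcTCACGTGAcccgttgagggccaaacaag
Ctsa, chr2:164833740-164833772, plus strand: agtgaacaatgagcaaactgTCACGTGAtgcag
Mcoln1, chr8:3500453-3500500, plus strand: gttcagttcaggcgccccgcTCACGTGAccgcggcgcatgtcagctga
Cln3, chr7:126583331-126583378, minus strand: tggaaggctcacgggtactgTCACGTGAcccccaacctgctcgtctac
Ctsl, chr13:64370731-64370770, minus strand: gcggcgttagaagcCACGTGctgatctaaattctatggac
Naglu, chr11:101070001-101070046, plus strand: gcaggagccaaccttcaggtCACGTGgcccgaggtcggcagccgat
Gaa, chr11:119267803-119267848, plus strand: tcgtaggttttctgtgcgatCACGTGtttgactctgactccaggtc
Ctsc, chr7:88277914-88277961, plus strand: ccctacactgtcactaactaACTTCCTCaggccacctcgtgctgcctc
The match began 99 bases before the RefSeq start in Ctsd, 13 in Ctsa, 46 in Mcoln1 and 122 in Cln3. Gene coordinates given further below are those of GENCODE, whose starts can differ, and its span of Ctsd includes the match shown here. A match is a description of letters, not of a bound site.

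Library totals lay between 29063006 and 62769274 counts. Defining markers fitted the tissue labels: 10 neuronal genes summed to 9220 to 10415 TPM (transcripts-per-million, a level scaled by gene length and library total) in cord at 10 months and to at most 10.36 in either muscle, while 9 myofibre genes summed to at least 92660 TPM in muscle and 95.3 to 812 in cord. Microglial markers were present in cord (10 homeostatic genes, 184 to 290 TPM at 10 months, none at 0). The libraries numbered 3.1, all of 10 months, stood apart in each tissue: in cord all 15 pan-myeloid genes lay above the other 9 libraries, with a median 1.05 log2 above their median, and in muscle many members lay outside the others' range. Values without them are given beside many of the results they touch, an alternative chosen after the data were seen. Gastrocnemius library 2.2 and cord libraries 5.2 and 6.1 also stood apart. Several members share exon bases with other genes, and whether the counting used strand is not given in the sources used here: Slc15a3 shares 28.1% of its exon bases with Tmem132a on the opposite strand, Ctsd 34.4% with Gm49369 on the same strand, Arsb 32.3% with Gm26527 and Ctsl 26.8% with Gm47123. The shares are of GENCODE exon bases, which differ from the gene lengths in the count table (5491 against 2345 for Slc15a3). How far the overlaps affect the values of those members was not tested.

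At 10 months the 42 members together made up 7130 ± 247 TPM in cord (SD, n = 10; lowest 6887, median 7043, highest 7751), 3518 ± 781 in gastrocnemius (3063, 3262 and 5713) and 3480 ± 931 in quadriceps (2835, 3239 and 6101). The highest value in each tissue belonged to library 3.1, without which the means were 7061, 3274 and 3188 (n = 9). A few members carried most of the sum. Psap (prosaposin, the precursor of sphingolipid activator proteins), Lamp1 (a main glycoprotein of the lysosomal membrane) and Ctsd (the aspartic protease cathepsin D) gave 49.8% of it in cord, 60.8% in gastrocnemius and 63.1% in quadriceps. In cord 15 members were above 100 TPM and 3 below 10, whereas each muscle had 6 above 100, and 16 (gastrocnemius) or 20 (quadriceps) below 10.

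**Figure D1:**
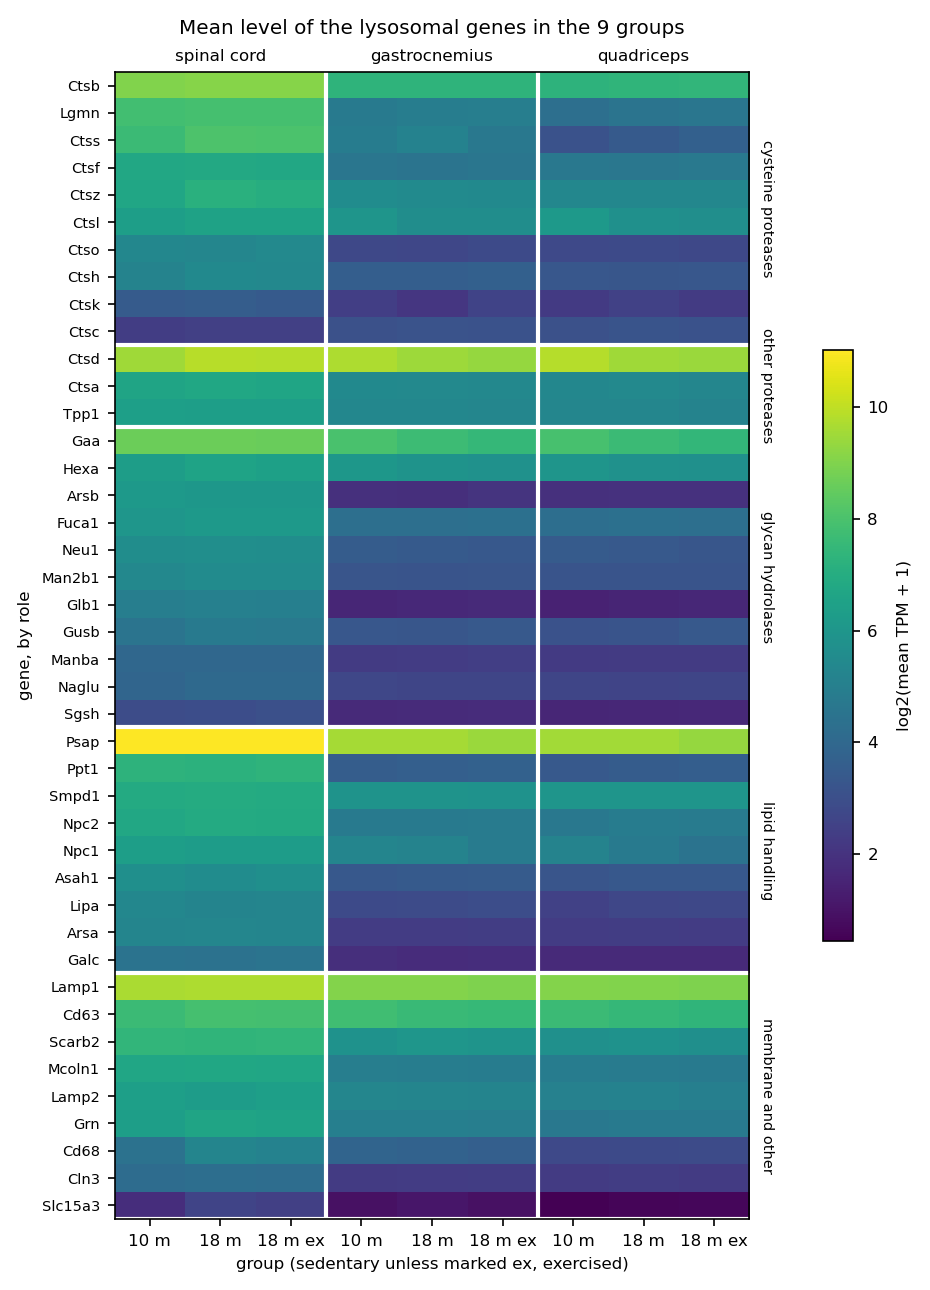
Heat map of the level of each of the 42 members, as log2 of the mean TPM plus 1, in the 9 groups (columns), with members (rows) ordered by role. Psap, Lamp1 and Ctsd are among the highest rows in every tissue, while Arsb, Glb1, Ppt1 and Ctss are each higher in the cord columns than in the muscle columns.

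Members differed widely in how their level was divided between cord and muscle. Arsb, which removes sulfate from dermatan and chondroitin sulfate, averaged 68.3 TPM in cord against 2.77 in gastrocnemius and 2.75 in quadriceps, 24.7-fold above the muscle mean. Glb1 (beta-galactosidase) was 16.4-fold, Ctss (a cysteine protease of antigen-presenting cells) 11.1-fold and Lgmn (asparaginyl endopeptidase) 9.77-fold higher in cord on the TPM scale. At the other end stood Ctsd, at 735 TPM in cord, 842 in gastrocnemius and 909 in quadriceps, and Ctsc, the dipeptidyl peptidase that activates granule proteases, at 4.23, 7.33 and 7.52. On TPM 39 members were higher in cord and 3, Cd63, Ctsd and Ctsc, were lower. How many of all genes were higher in cord on TPM is not given here. Neither this count nor the TPM sums above therefore set the members apart from other genes. The direction of Cd63 rested on libraries 3.1: without them its means were 199 TPM in cord, 193 in gastrocnemius and 179 in quadriceps, and only Ctsd and Ctsc were lower in cord. The fit across tissues, scaled by the trimmed mean of M-values (TMM), called 22 members up and 15 down in cord, near the shares of all 19735 genes (53.9% called up and 38.2% down). Without libraries 3.1 it called 19 members up and 18 down. That scale sits a median of 1.51 log2 below TPM for these members, and 12 called members had opposite signs on the TPM and fitted scales. Psap, for example, was 2.64-fold higher on TPM and at -0.12 log2 in the fit. With all libraries the direction was the same on both scales for the 22 called up and for Cd63, Ctsd and Ctsc, of which Cd63 turns on TPM without libraries 3.1. Glb1 (2.52 log2 in the fit), Ppt1, which removes fatty acids from proteins (2.39), and Ctss (2.25) were up on both, and Ctsc (-2.33) and Ctsd (-1.75) were down on both.

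The muscles differed less from each other. At 10 months 4 members were higher in gastrocnemius and 2 lower, of 42, where 5.75% of all genes were called up and 5.25% down. Ctss differed most, at 28.8 TPM in gastrocnemius and 7.54 in quadriceps (1.78 ± 0.21 log2, SE, edgeR adjusted p = 2.47e-10). Cd68 (a macrophage membrane glycoprotein; 1.04 ± 0.15), Slc15a3 (an endolysosomal peptide and histidine transporter; 1.09 ± 0.22) and Lgmn (0.40 ± 0.07) were also higher, and Smpd1 (acid sphingomyelinase; -0.24) and Ctso (-0.17) lower. In the same comparison 7 of 15 pan-myeloid genes were up, with a median of 0.56 log2 over the list, and their part in the result was not tested. Without libraries 3.1 in gastrocnemius and quadriceps and 2.2 in gastrocnemius the count of members called was 14, of which 6 were higher and 8 lower. The count over all genes in that setting is not given here.

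In spinal cord, 15 of the 42 members (35.7%) rose between 10 and 18 months in sedentary mice and none fell, where 2.82% of all 18956 genes were called up and 2.53% down. The median member differed by 0.11 log2 and the median gene by 0.01, and 32 members had a fitted value above 0. By role, with the difference between roles not tested, 5 of 10 cysteine proteases, 2 of 3 other proteases, 4 of 11 glycan hydrolases and 4 of 9 membrane and other proteins rose, and 0 of 9 lipid proteins did, although Npc2 was called by DESeq2 (adjusted p = 0.0328) and limma (adjusted p = 0.0363). In each of the 15, all 10 libraries of 18 months lay above the median of the 10-month libraries. The 15 were called from these same libraries, so this describes their spread and adds no support to the calls.

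Among membrane proteins Slc15a3, a gene of chromosome 19 (Entrez 65221; chr19:10839727-10859362, plus strand), changed most. Its level ran from 1.85 to 2.53 CPM (counts-per-million, scaled by library size; median 2.02) at 10 months, from 3.38 to 5.33 (median 4.38) at 18 months sedentary, and from 2.96 to 4.50 (median 3.54) at 18 months exercised. The ages did not overlap, and the ageing difference was 1.03 ± 0.09 log2, or 2.05-fold (edgeR adjusted p = 1.67e-09). Cd68 (Entrez 12514; chr11:69664213-69666153, minus strand), the usual histological marker of lysosome-rich phagocytes, ran from 6.95 to 15.9 CPM (median 8.06) at 10 months, from 13.5 to 19.0 (median 16.96) at 18 months sedentary, and from 11.4 to 16.8 (median 15.1) when exercised. Its single high value at 10 months, 15.9, is library 3.1; the next was 9.59, below all of the 18-month libraries. The ageing difference was 0.89 ± 0.10 log2, 1.85-fold (edgeR adjusted p = 7.67e-07).

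Of the proteases, Ctsd (Entrez 13033; chr7:142375911-142388038, minus strand) ran from 441 to 608 CPM (median 487) at 10 months and from 578 to 761 (median 651) at 18 months, with 575 to 717 (median 604) in the exercised libraries. The sedentary groups overlapped through library 3.1, without which the young libraries reached 531, and the difference was 0.39 ± 0.05 log2 (1.31-fold; edgeR adjusted p = 8.04e-06). Ctsz (cathepsin Z, a carboxypeptidase; Entrez 64138; chr2:174427493-174439039, minus strand) ran from 43.4 to 67.3 CPM (median 51.2) at 10 months, from 58.6 to 91.9 (median 69.3) at 18 months and from 58.9 to 78.3 (median 65.4) when exercised. Here too only library 3.1 reached into the older range, the other young libraries ending at 58.3, and the difference was 0.48 ± 0.07 log2 (edgeR adjusted p = 6.12e-05).

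Ctss (Entrez 13040; chr3:95526786-95556403, plus strand), which trims the invariant chain of MHC class II, ran from 83.3 to 181 CPM (median 96.2) at 10 months, from 115 to 155 (median 134) at 18 months and from 109 to 149 (median 130) when exercised. The value of 181 in library 3.1 was the highest of the 33 cord libraries, and the other young libraries, at up to 102, lay below all older ones. The ageing difference with all libraries was 0.41 ± 0.09 log2 (edgeR adjusted p = 0.00898). Ctsh (cathepsin H, mainly an aminopeptidase; Entrez 13036; chr9:90054152-90076089, plus strand) ran from 14.4 to 32.3 CPM (median 19.0) at 10 months, from 21.9 to 29.1 (median 25.7) at 18 months and from 20.01 to 27.8 (median 22.8) when exercised. Its groups overlapped also without library 3.1 (other young libraries up to 22.8), and the difference was 0.35 ± 0.09 log2 (edgeR adjusted p = 0.0169).

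**Figure D2:**
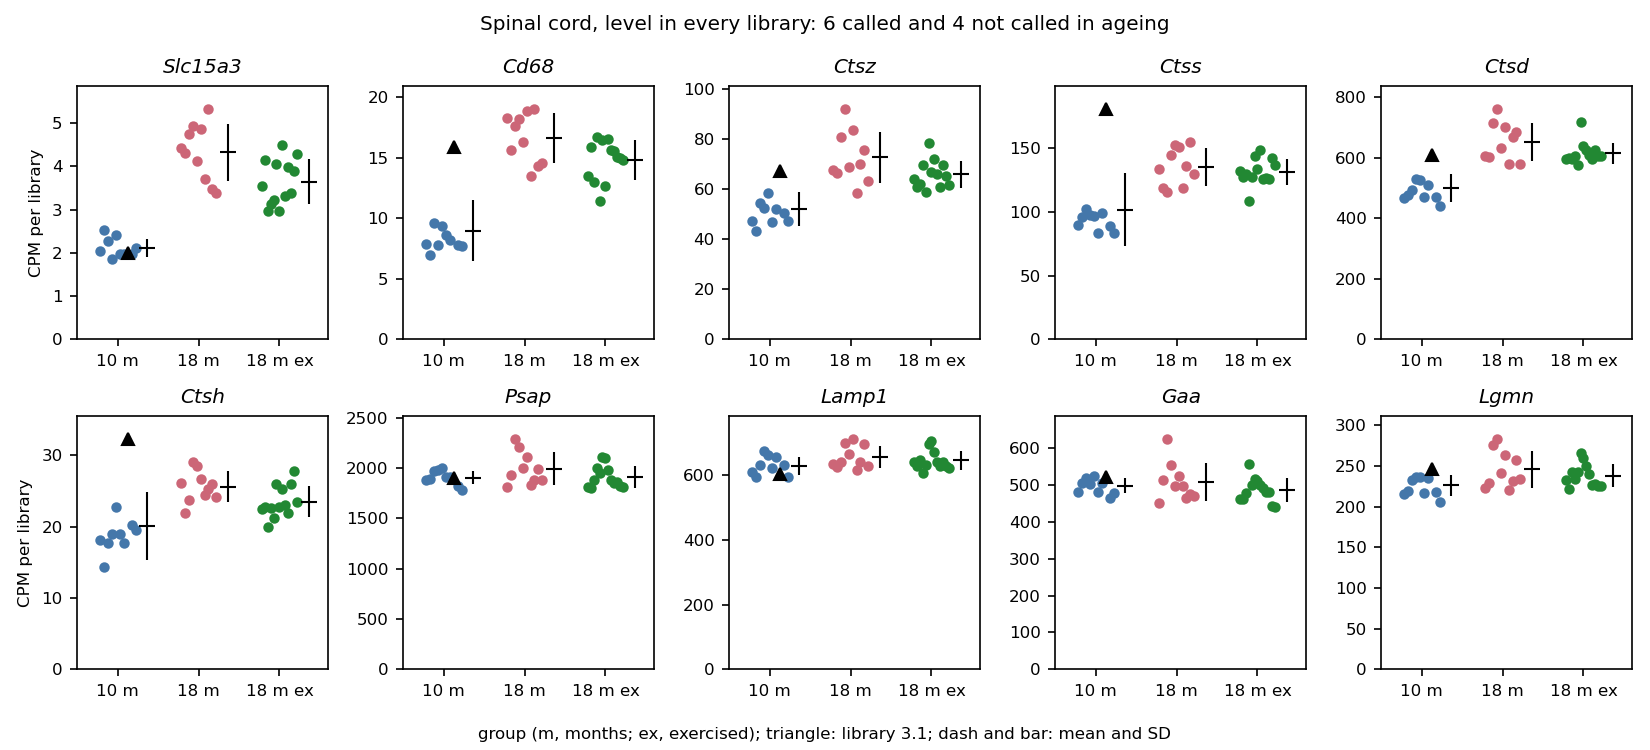
CPM of each cord library (points, library 3.1 as a triangle) in the 3 groups for the 6 called members with the largest ageing change and the 4 most abundant members not called; the dash and bar are the mean and SD. Slc15a3 is the member whose sedentary groups do not touch, and for Cd68, Ctsz, Ctss and Ctsd the triangle is the only young point that reaches the older ones.

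The other 9 called members moved by less. Cd63 (a tetraspanin of late endosomes) went from a mean of 84.2 to 102 CPM (0.28 ± 0.06 log2) and Grn (progranulin, a secreted and lysosomal protein) from 66.6 to 80.7 (0.28 ± 0.07). Of the endopeptidases, Ctsl went from 102 to 115 CPM (0.18 ± 0.04) and Ctsb from 843 to 927 (0.14 ± 0.04), and the carboxypeptidase Ctsa, which protects beta-galactosidase and neuraminidase, from 122 to 137 (0.18 ± 0.05). These are changes of at most 1.22-fold, small beside those of Slc15a3 and Cd68. Among glycan hydrolases Gusb (beta-glucuronidase) went from 20.6 to 24.5 CPM (0.25 ± 0.05), Hexa (the alpha subunit of beta-hexosaminidase A) from 57.8 to 69.3 (0.26 ± 0.06), Naglu (a heparan sulfate hydrolase) from 11.8 to 13.9 (0.23 ± 0.07) and Fuca1 (alpha-fucosidase) from 55.8 to 63.8 (0.19 ± 0.05). Their edgeR adjusted p-values lay between 0.00101 for Gusb and 0.0348 for Naglu. When each cord library was left out in turn, 13 of the 15 were called in all 33 fits, Ctsa in 26 and Naglu in 23. When only the young and older sedentary groups were fitted, 8 were called (Slc15a3, Cd68, Ctsd, Ctsz, Gusb, Hexa, Ctsl and Cd63), and the other 7 had edgeR adjusted p-values between 0.0520 and 0.0939. Without libraries 5.2 and 6.1 the calls of Ctsb, Ctsa, Naglu, Fuca1 and Grn were lost (edgeR adjusted p from 0.0550 to 0.121).

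**Figure D3:**
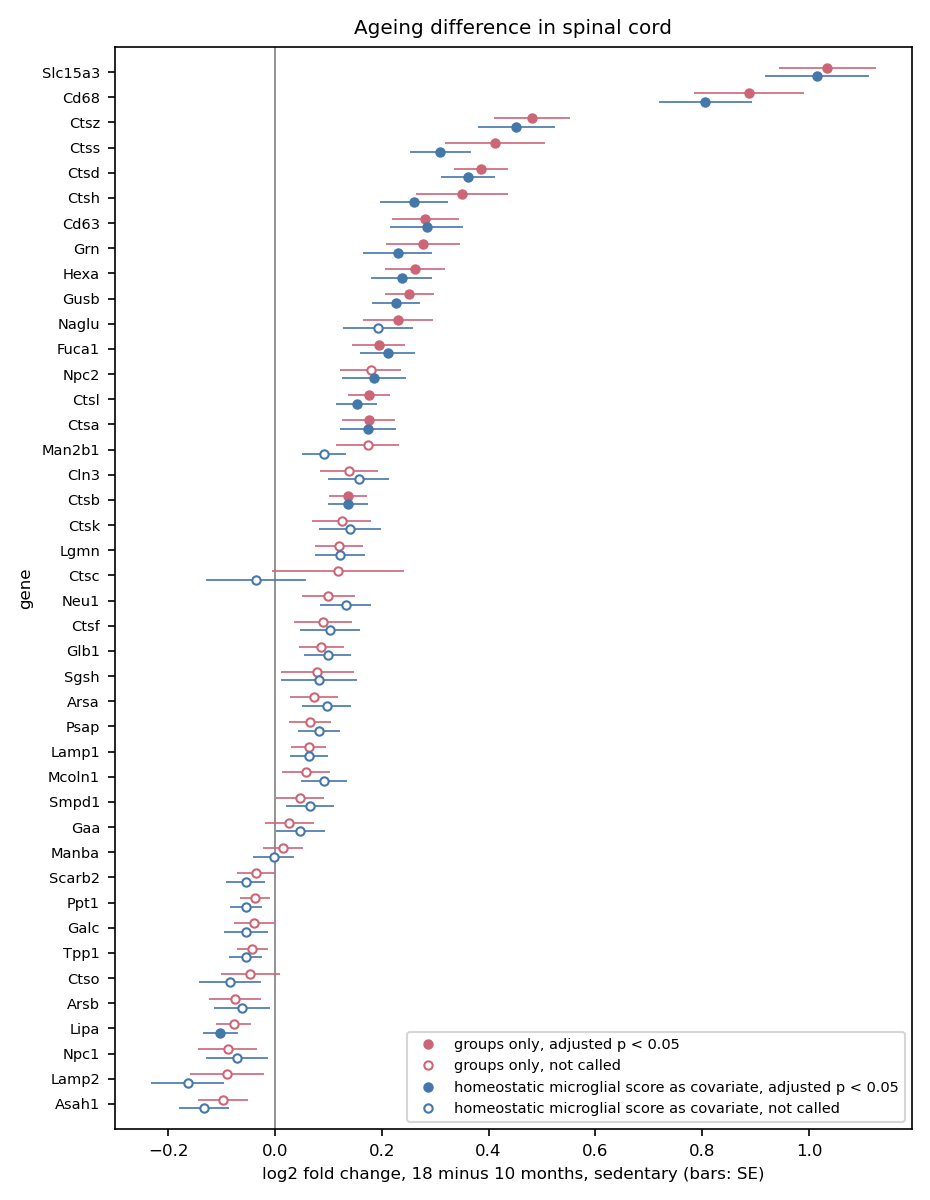
Log2 change between 10 and 18 months in sedentary cord (x axis) for each member (y axis, ordered by the change), with bars of 1 SE, fitted without and with the homeostatic microglial score as a covariate; filled points passed the test. Slc15a3 and Cd68 stand to the right of the other members in both fits, and Asah1, Lamp2, Npc1 and Lipa lie lowest.

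The 4 most abundant members that did not pass the test moved little. Psap (Entrez 19156; chr10:60277627-60302597, plus strand) ran from 1782 to 2003 CPM (median 1908) at 10 months and from 1812 to 2290 (median 1960) at 18 months, a difference of 0.07 log2 (edgeR adjusted p = 0.281). Lamp1 ran from 593.4 to 674.6 CPM (median 626) and from 617 to 712 (median 640), a difference of 0.06 (edgeR adjusted p = 0.214). These groups overlapped over most of their range. Gaa, the acid alpha-glucosidase that degrades glycogen, ran from 464 to 525 CPM (median 503) and from 451 to 624 (median 496; 0.03 log2, edgeR adjusted p = 0.742), and Lgmn from 206 to 246 (median 226) and from 221 to 283 (median 238; 0.12 log2, edgeR adjusted p = 0.0933). The exercised medians of these 4 were 1883, 640, 480 and 234 CPM, inside the range of the sedentary groups. The lipid proteins lay on both sides of 0: Npc2, the soluble cholesterol carrier, was at 0.18 log2 (edgeR adjusted p = 0.0567), and Asah1 (acid ceramidase) at -0.10 and Lipa (acid lipase) at -0.08. All 10 older libraries of Asah1 lay below the young median, though the difference did not pass the test. Man2b1, an alpha-mannosidase, did not pass in this fit (0.17 ± 0.06 log2, edgeR adjusted p = 0.0725), although 9 of 10 older libraries lay above the young median. Its highest young value, 95.3 CPM, was library 3.1, and the other young libraries reached at most 72.8. The remaining members, among them Lamp2 (-0.09), Manba (0.01) and Ctsc (0.12 ± 0.12), did not pass in this fit either.

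Cell markers moved beside these members. Of 15 pan-myeloid genes 9 rose (Tyrobp 0.68, C1qa 0.71, Irf8 0.52, Fcer1g 0.62 log2; list median 0.46), and of 12 genes of activated microglia 8 rose (Cst7 2.24, Lgals3 1.65, Gpnmb 2.05, Trem2 0.79; median 0.81), while 1 of 10 homeostatic microglial genes did (Cx3cr1 0.24; median 0.05). The summed pan-myeloid level went from 573 to 1299 TPM at 10 months to 852 to 1076 at 18 months. Red cell genes had a median of 1.61 log2 with 0 of 7 called. The part of the library number before the point was 1 to 3 at 10 months and 4 to 10 at 18 months, so anything it stands for and age cannot be told apart.

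The rule for these genes asks how they move relative to microglial content, and the answer depended on which markers measured it. A score was the mean log2 CPM of a list in a library. The homeostatic score was 4.02 at 10 months and 4.11 at 18 months, a difference of 0.087 (permutation test, 2-sided, adjusted p = 0.241; 0.133 and 0.00797 without library 3.1). With this score as a covariate 15 members were up and 1 down, where 4.96% of all genes were called up and 5.47% down. Slc15a3 was at 1.02 ± 0.10 log2, Cd68 at 0.81 ± 0.09, Ctsz at 0.45, Ctsd at 0.36, Ctss at 0.31 ± 0.06, Ctsh at 0.26 and Grn at 0.23. Npc2 joined the called members (0.18, edgeR adjusted p = 0.0463), Naglu left them (edgeR adjusted p = 0.0508), and Lipa was the member called down (-0.10, edgeR adjusted p = 0.0429). Without library 3.1 the counts were 19 up and 6 down, the latter being Ctso, Asah1 (-0.24), Lipa, Ppt1, Lamp2 (-0.32) and Scarb2, and without libraries 5.2 and 6.1 only 4 members were called. The counts over all genes in these settings are not given here.

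With the pan-myeloid score in place of the homeostatic one 2 members were called, Slc15a3 (0.96 log2) and Cd68 (0.50), and with the activated score 1, Ctsc, which was down (-0.92). Those scores themselves moved with age, by 0.449 (permutation test, adjusted p = 0.00552) and by 0.967 (permutation test, adjusted p = 0.00012). With all libraries the activated score ran from 2.99 to 3.68 at 10 months and from 3.94 to 4.52 at 18 months sedentary. These ranges did not overlap, so age and the activated score cannot be told apart, with or without library 3.1. Without library 3.1 the pan-myeloid score ran from 3.55 to 3.89 at 10 months and from 4.02 to 4.36 at 18 months, with no overlap, so that age and this score cannot be told apart there, and no member was called with either score in that setting.

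Few members followed the homeostatic score across libraries of one group. The slope on the score within the groups passed the test in 5 of 42 members, all upward, where 1.90% of all genes had an upward and 0.200% a downward slope: Ctsc (1.85 ± 0.32 log2 per log2 of the score), Ctss (1.55 ± 0.19), Ctsh (1.27 ± 0.22), Cd68 (1.24 ± 0.29) and Man2b1, the lysosomal alpha-mannosidase (0.97 ± 0.14). Without library 3.1 it passed in 10, of which 3 were in common with the first 5: Ctsc (1.99), Ctss (1.02) and Man2b1 (0.95). There Ctsh had 0.87 (edgeR adjusted p = 0.0664) and Cd68 0.42 (edgeR adjusted p = 0.483). Lamp2 (1.60), Ctso (1.06) and Asah1 (0.96) were among those gained, and Gaa (-0.67) and Neu1 (-0.72) sloped down. Library 5.2 had the lowest score of the sedentary 18-month group (3.88) and was low for Lamp2, Ctso and Asah1. How far these slopes rest on library 5.2 was not tested. The count of slopes over all genes without library 3.1 is not given here. Of the 15 members that rose with age 3 also had a slope that passed with all libraries, and 12 did not. Of those 12, Ctsz (0.77, edgeR adjusted p = 0.0453), Ctsd (0.60, edgeR adjusted p = 0.0180), Gusb (0.52) and Grn (0.99) had a slope that passed without libraries 5.2 and 6.1, and the same 4, together with Ctsl and Hexa, passed with the pan-myeloid score.

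**Figure D4:**
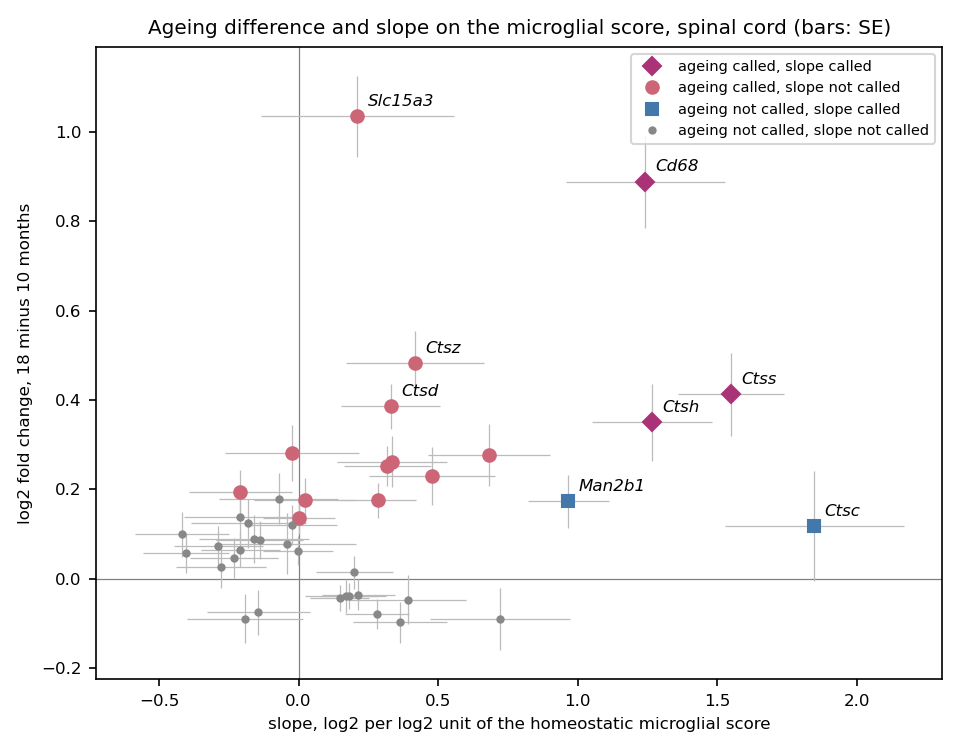
Ageing change of each member in sedentary cord (y axis, log2) against its slope on the homeostatic microglial score (x axis, log2 per log2), both from edgeR fits of the 33 cord libraries, with bars of 1 SE and the calls given by colour and shape. Ctsc has the steepest slope with an ageing change that did not pass the test, and Slc15a3 the largest ageing change with a slope that did not pass.

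No member passed the test for exercise at 18 months in cord, and no gene did in edgeR (0% of 18956; DESeq2 and limma also called 0 members). Unadjusted, 8 members and 2565 genes had p under 0.05 in edgeR. The member median was -0.05 log2, and 10 of 42 fitted values were above 0. The median over all genes and the share of them fitted above 0 are not given here. Slc15a3 had -0.25 ± 0.08 (unadjusted p = 0.00476, edgeR adjusted p = 0.368), Cd68 -0.17, Ctsz -0.14, Hexa -0.14 and Ctsk, the bone collagenase of osteoclasts, -0.14, while Asah1 had 0.11. The pan-myeloid score was 0.1005 lower in exercised cord (permutation test, 2-sided, adjusted p = 0.0447, or 0.0769 without libraries 5.2 and 6.1), and the homeostatic score differed by 0.012 (adjusted p = 0.740). At equal homeostatic score 0 members and 0 of 18956 genes were called, and 12 members had an unadjusted p under 0.05 in edgeR. How many of all genes had one at equal score is not given here.

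Exercised mice of 18 months against sedentary mice of 10 months gave 8 members up in cord and none down, where 0.981% of all genes were called up. The share called down was 0.528%. They were Slc15a3 (0.79 log2), Cd68 (0.72), Ctss (0.37), Ctsz (0.34), Ctsd (0.30), Cd63 (0.23), Gusb (0.20) and Ctsl (0.16). This comparison shares its young libraries with the ageing comparison, in which the same members had 1.03, 0.89, 0.41, 0.48, 0.39, 0.28, 0.25 and 0.18. Without library 3.1 it called 14 members, and 534 genes over all, against 186 genes up and 100 down with that library. Cd63 was called in 20 of the 33 fits that left out 1 cord library each, and Ctss in 32, being lost without library 2.2 (edgeR adjusted p = 0.0523).

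No member passed the test with age in either muscle. In gastrocnemius 0 of 42 were called, where 0.153% of all genes were, and 5 had an unadjusted p under 0.05 in edgeR: Scarb2, the receptor that carries glucocerebrosidase (0.12 log2), Ctsd (-0.27), Ctsk (-0.37), Gaa (-0.29) and Hexa (-0.20). DESeq2 called 0 there and limma 2. In quadriceps 0 of 42 were called, where 0.352% of all genes were, and 4 had an unadjusted p under 0.05: Npc2 (0.17), Ctsd (-0.33), Lgmn (0.18) and Lipa (0.21). DESeq2 called 0 and limma 1. How many of all genes had an unadjusted p under 0.05 with age in either muscle is not given here. Several of the negative values rested on library 3.1: without it Ctsd had -0.10 in gastrocnemius and -0.15 in quadriceps, Gaa -0.05 in gastrocnemius, and Ctsl 0.02 in place of -0.31 and 0.07 in place of -0.37.

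Exercise called 0 members in gastrocnemius (0.106% of all genes) and 0 in quadriceps (0.757%). In gastrocnemius 6 members had an unadjusted p under 0.05 in edgeR, led by Ctsk (0.57 ± 0.15 log2, edgeR adjusted p = 0.0815) and Psap (-0.13). In quadriceps 3 did: Psap (-0.15, edgeR adjusted p = 0.0762), Gusb (0.26, edgeR adjusted p = 0.108) and Lgmn (0.17). The matching counts over all genes are not given here. Without library 3.1, which is in neither group but shares in the estimate of the spread, 2 members passed in each: Ctsk (0.57, edgeR adjusted p = 0.0259) and Npc1, the membrane cholesterol transporter (-0.36, edgeR adjusted p = 0.0361), in gastrocnemius, and Gusb (0.26, edgeR adjusted p = 0.0320) and Psap (-0.15, edgeR adjusted p = 0.0309) in quadriceps. Over all genes that setting called 336 in gastrocnemius and 341 in quadriceps, against 16 and 112 with library 3.1 kept. DESeq2 called 1 member in each muscle, Ctsk and Psap, and limma 5 and 3. Ctsk lies beside a fibroblast list of which 7 of 7 genes had a fitted value above 0 in exercised gastrocnemius (median 0.31, 0 called), and its part in the result was not tested.

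Across both differences together, exercised mice of 18 months against sedentary mice of 10 months, 2 members were called in gastrocnemius, both down, where 6.73% of all genes were called in either direction. Ctsd ran from 574 to 1440 CPM (median 625.1) at 10 months and from 509 to 633 (median 549) in the older exercised libraries (-0.37 ± 0.10 log2, edgeR adjusted p = 0.0248), and Gaa from 287 to 917 (median 325) and from 229 to 345 (median 293; -0.46 ± 0.13, edgeR adjusted p = 0.0291). Both maxima are library 3.1, the groups overlapped, and without it the differences were -0.20 for Ctsd (edgeR adjusted p = 0.0240) and -0.22 for Gaa (edgeR adjusted p = 0.0394). Gaa was not called without library 7.1 (edgeR adjusted p = 0.0534).

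In quadriceps the same comparison called 6 members up and 1 down, where 5.76% of all genes were up and 5.38% down. Psap ran from 893 to 999 CPM (median 945) at 10 months and from 773 to 894 (median 813) in the older exercised libraries, a fall of 0.20 ± 0.04 (edgeR adjusted p = 0.0011), with ranges that barely touched. Lgmn ran from 18.3 to 29.2 CPM (median 25.4) and from 26.5 to 39.6 (median 31.4; 0.35 ± 0.07 log2, edgeR adjusted p = 0.00172), and Gusb, on the TPM scale, from 6.28 to 9.08 (median 7.82) and from 6.90 to 11.2 (median 10.11; 0.31 ± 0.07 log2 in the fit, edgeR adjusted p = 0.00516). In CPM most older libraries lay above all young ones, 10 of 12 for Lgmn and 9 of 12 for Gusb. Lipa ran from 4.57 to 7.91 CPM and from 6.55 to 9.42 (0.33 ± 0.09, edgeR adjusted p = 0.0135), and Npc2 from 31.9 to 42.5 and from 34.6 to 48.2 (0.20 ± 0.06, edgeR adjusted p = 0.0149). Ctss ran from 3.40 to 7.26 and from 5.33 to 22.4 (0.65 ± 0.22, edgeR adjusted p = 0.0456), with groups that overlapped. Ctss was not called without library 3.1 (0.61, edgeR adjusted p = 0.0711), while the other 6 were. Ctss was called in 16 and Ppt1 (0.24 ± 0.08, edgeR adjusted p = 0.0483) in 11 of the 31 fits that left out 1 quadriceps library each. In this comparison 13 of 15 pan-myeloid genes had a fitted value above 0 (median 0.17) with 0 called.

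The ageing difference of cord was larger than that of the muscles for 6 members of 42 in a single fit over the 3 tissues, where 1.08% of all genes were called up and 1.54% down. The differences were 0.52 ± 0.08 log2 for Ctsz (edgeR adjusted p = 2.92e-05), 0.66 ± 0.13 for Ctsd (edgeR adjusted p = 0.00126), 0.91 ± 0.18 for Cd68 (edgeR adjusted p = 0.00202), 0.43 ± 0.11 for Hexa (edgeR adjusted p = 0.0243), 0.30 ± 0.08 for Naglu (edgeR adjusted p = 0.0293) and 0.44 ± 0.12 for Cd63 (edgeR adjusted p = 0.0356). Without libraries 3.1 11 members passed, 10 of them upward, and Ctsd had 0.53, Hexa 0.33 and Cd63 0.31. The count over all genes in that setting is not given here. Without all the libraries that stand apart 4 passed, Ctsz (0.39), Ctsd (0.42), Cd68 (0.92) and Ctsh (0.48), and Hexa (0.22, edgeR adjusted p = 0.116), Naglu (0.26, edgeR adjusted p = 0.108) and Cd63 (0.22, edgeR adjusted p = 0.233) did not; Cd63 was also lost with no filter on low counts (edgeR adjusted p = 0.0502). Of the 15 members that rose in cord, 3 had a fitted value above 0 in gastrocnemius and 8 in quadriceps, and 7 were below 0 in both; their medians were 0.28 in cord, -0.05 in gastrocnemius and 0.03 in quadriceps. The exercise difference of cord against muscle was called for 0 members (0.887% of all genes), and the difference between gastrocnemius and quadriceps was called for 0 members and 0% of genes, for ageing and for exercise alike.

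Members lay far from the other young libraries in library 3.1, and differently in muscle and cord. In gastrocnemius Ctsl had 266 CPM where the other 9 young libraries ran from 68.9 to 83.8, Gaa 917 (others 287 to 404), Npc1 204 (45.2 to 82.6) and Ctsd 1440 (574 to 869). In quadriceps Npc1 had 274 CPM (others 54.0 to 68.9), Ctsl 371 (77.0 to 84.0), Gaa 1020 and Ctsd 1639. So the same 4 members were raised by 2.305-fold to 4.81-fold over the median of the others in both muscles. Other members were low there: Ctss was at 0.383, Arsb at 0.454 and Ctsk at 0.506 of the median in gastrocnemius, and Ctsk at 0.374 and Arsb at 0.419 in quadriceps. In cord the pattern was another one, with Cd68 (2.01-fold), Ctss (1.88-fold), Ctsc (1.76-fold), Ctsh (1.70-fold) and Grn (1.52-fold) high. Beside these values, 11 of 17 autophagy genes in gastrocnemius and 14 of 17 in quadriceps lay above all other young libraries (Sqstm1 2.97-fold and 3.05-fold), and 17 of 21 sorting genes did in each, while 6 of 7 fibroblast genes lay below all others in both muscles (medians -1.71 and -2.09 log2). Lists unrelated to lysosomes were displaced too. In quadriceps 7 of 7 endothelial and 7 of 9 myofibre genes lay below all others, and in gastrocnemius 5 of 7 and 6 of 9. The share of all genes outside the range of the other 9 is not given here for any tissue. The part of these genes in the members' values was not tested, and nothing in the labels sets this library apart.

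**Figure D5:**
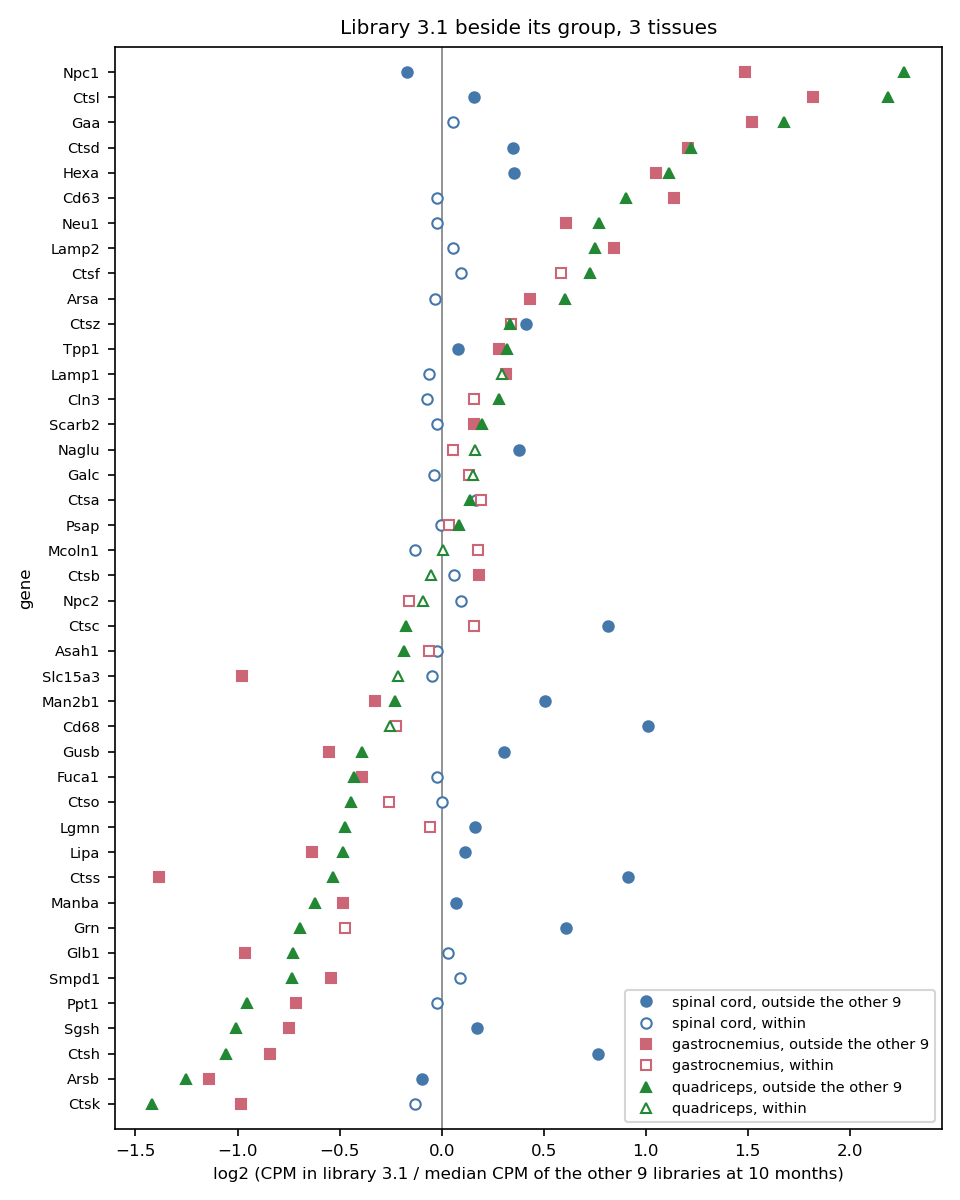
Log2 of the CPM of library 3.1 over the median of the other 9 libraries of 10 months, for each member (rows) in cord, gastrocnemius and quadriceps (colours); filled points lie outside the range of the other 9. Ctsl, Gaa, Npc1 and Ctsd lead in both muscles, whereas Cd68 and Ctss lead in cord.

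Other genes of the lysosome were counted in the same cord ageing comparison. Of 35 other hydrolases 6 rose (Lyz2, lysozyme, 0.99 log2; Dnase2a 0.41; Galns 0.21; Pld4 0.35), and of 25 other membrane proteins tested 2 rose (Laptm5 0.39, Cln6 0.18) and 1 fell (Mfsd8 -0.19). Of 20 subunits and accessory proteins of the V-ATPase, the proton pump that acidifies the lysosome, 2 rose (Atp6v0d2 2.27, Tcirg1 0.23) and 1 fell (Atp6v1a -0.17). None of 21 sorting genes and none of 17 autophagy genes passed the test (3 and 6 at an unadjusted p under 0.05 in edgeR), and of 18 genes of the TFEB family and nutrient sensing only Zkscan3, a repressor of autophagy genes, changed (-0.14). Of 8 protease inhibitors 3 rose: the cystatin Cst7 (2.24), A2m (0.29) and Serpina3n (0.28).

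Returning to the upstream sequences shown first, CACGTG was in 4 of the 12 members that rose in cord and had a RefSeq window (Ctsd, Ctsl, Ctsa and Naglu) and in 9 of the 25 other members with one. GAGGAAGT was in 2 of those 12 (Gusb and Ctss) and in 1 of the 25 (Ctsc). The matches in Gusb and Ctss reached past the annotated start, and only that in Ctsc lay upstream of it. These are counts of letters over few genes, with no test.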

How the data were processed

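Deposited files were read as follows. The authors deposited raw counts per Entrez gene, whole numbers with no normalization, and TPM values computed by the authors, which match length-scaled counts within rounding; FPKM was not used. Per the submitters' processing notes, STAR 2.5.2b and GRCm38.p5 were used; no source used here names the program that counted reads or its strand setting. The members and gene lists were chosen with earlier results of these data known. All 42 members are described; from other lists counts are given, with up to 4 called genes in cord ageing and up to 2 in muscle.

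Counts were tested per tissue, over all 3 groups, with edgeR 4.0.16 (R 4.3.3; TMM factors, quasi-likelihood test, low-count filter at a minimum count of 10 and a total of 15), with Benjamini-Hochberg adjustment over all genes and a threshold of 0.05; SE is the log2 change over the root of F. A fit of all 97 libraries compared tissues. CPM uses TMM-scaled library sizes. Microglial scores used a prior count of 2 and permutation tests of 100000 resamples (scipy 1.17.1, Python 3.11.15), with p-values adjusted over 6. Alternatives were DESeq2 1.42.0, limma 3.58.1 with quality weights, RLE factors, no filter, covariates for scores or gene length, and leaving out libraries. The scripts were tested on simulated data. Of 99 samples, 2 of quadriceps (10.4 sedentary and 10.2 exercised) were not analysed here.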

Additional observations from a re-analysis of the deposited data

Results flagged for a closer look

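Of 252 checks for a single library far from the rest of its group, 58 marked a value, where chance marks about 5%. The checks covered only the sedentary groups, so the exercised libraries were not checked. Values are CPM. Library 3.1 of 10 months accounts for most. In cord it was high for Ctsc (27.3), Ctsh (32.3), Ctss (181), Hexa (72.0), Man2b1 (95.3), Cd68 (15.9) and Grn (93.8). In gastrocnemius it was high for Ctsl (266), Ctsd (1440), Hexa (109), Gaa (917), Npc1 (204), Lamp1 (633) and Lamp2 (139) and low for Smpd1 (42.2). In quadriceps it was high for Ctsf (35.0), Ctsl (371), Ctsd (1639), Tpp1 (80.0), Hexa (110), Gaa (1020), Neu1 (28.7), Arsa (9.39), Npc1 (274), Lamp2 (120) and Cd63 (188), and low for Ctsk (1.52), Lgmn (18.3), Manba (4.64), Sgsh (2.15), Arsb (2.25), Smpd1 (41.2), Ppt1 (6.60) and Grn (17.3).

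Sedentary cord library 5.2 of 18 months was low for Ctsc (10.6), Ctso (30.6), Man2b1 (57.5), Asah1 (51.3) and Lamp2 (76.7) and high for Arsa (60.8) and Mcoln1 (93.1). Gastrocnemius library 2.2 was high for Fuca1 (28.8), Psap (1091), Npc2 (48.7) and Mcoln1 (33.0), and library 6.1 for Tpp1 (74.2). Quadriceps library 5.2 was high for Ctsa (82.9), Hexa (62.6), Fuca1 (31.1), Smpd1 (86.6) and Lamp1 (667) and low for Man2b1 (12.1). Library 6.1 was high for Ctsl (103), Cd68 (5.72) and Grn (35.2), library 3.2 for Ctsb (386), library 9.3 for Ctsk (11.6) and library 9.2 for Npc1 (87.2).

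For 6 members the ageing change of cord differed from that of the muscles by the test of the difference itself (log2, edgeR): Ctsz 0.52, Ctsd 0.66, Cd68 0.91, Hexa 0.43, Naglu 0.30 and Cd63 0.44. Hexa (0.22), Naglu (0.26) and Cd63 (0.22) did not pass without the libraries that stand apart.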

How the results depend on the processing

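Counts below are members called of 42 by edgeR unless another tool is named. Leaving out 1 library at a time gave 13 to 17 for ageing in cord, 0 for exercise in cord, 6 to 14 for older exercised against young cord, 0 for ageing in either muscle, 0 to 2 for exercise in each muscle, and for older exercised against young 1 to 3 in gastrocnemius and 5 to 10 in quadriceps. The 14 came without library 3.1. Over all genes, the same fits called 407 to 1892 for ageing in cord and 161 to 534 for older exercised against young cord. For exercise they called 3 to 336 genes in gastrocnemius and 60 to 341 in quadriceps. Whether members moved more than other genes between settings was not tested. For ageing in cord the pan-myeloid covariate left 2 and fitting only both groups 8; older exercised against young cord gave 2 with that covariate and 14 with limma. Ageing at equal homeostatic score called 2 with the pan-myeloid and 1 with the activated score instead, 4 without libraries 5.2 and 6.1, 25 without library 3.1, and 0 with either other score and without library 3.1. The slope passed in 11 (pan-myeloid score), 8 (activated score), 9 (without 5.2 and 6.1), 10 (without 3.1) and 8 (pan-myeloid score, without 3.1).

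In gastrocnemius limma called 2 for ageing; for exercise the count was 2 without the libraries that stand apart (3.1 and 2.2), 2 with a gene-length covariate, 1 with the pan-myeloid covariate, 1 when only both groups were fitted, 5 with the first part of the number as a term, 5 with limma and 1 with DESeq2. Older exercised against young gastrocnemius gave 1 without those libraries and 0 when only both groups were fitted. In quadriceps limma called 1 for ageing, and exercise gave 2 without library 3.1, 3 with limma and 1 with DESeq2. The difference between cord and muscle gave 11 for ageing and 1 for exercise without libraries 3.1. Gastrocnemius against quadriceps gave 14 without the libraries that stand apart. Deviations of same-numbered libraries correlated above 0.1 in 14 of 33 pairs (cord and gastrocnemius), 11 of 31 (cord and quadriceps) and 28 of 31 (both muscles), and 3, 6 and 22 libraries correlated best with their own number, so not every pair exceeds 0.1 and the number is not taken as a pairing, though it links most muscle libraries; a replicate block over it gave 10 for gastrocnemius against quadriceps (adding Ctsf, Ctsd, Lamp1 and Cln3) and 8 for ageing in cord against muscle. The homeostatic score differed with age by 0.133 without library 3.1 and with exercise by -0.026 without libraries 5.2 and 6.1; the pan-myeloid score differed with exercise by -0.093 without those libraries and -0.094 with RLE factors.

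Of the single members' values under alternatives, 344 kept direction and side of the threshold, 124 kept direction and lost the call, and 16 reversed, all in ageing at equal score. With the pan-myeloid score and without library 3.1 these were Ctsb -0.019, Ctsh -0.083, Ctsl -0.092, Ctsa -0.078, Hexa -0.0060, Gusb -0.0057, Fuca1 -0.034, Npc2 -0.16, Cd63 -0.19 and Grn -0.14. With the activated score they were Ctsh -0.27, Ctss -0.16 and Grn -0.16, and, also without library 3.1, Ctsh -0.014, Cd63 -0.016 and Grn -0.0014. The cause of these changes was not tested.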
